A study of Homo sapiens with 8 samples.

Results

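The regions described here are the 15348 low-confidence G4 intervals that were found in HepG2 and not in K562. They are the intervals of the HepG2 list built from peaks present in at least 2 of 9 replicates (the 2of9 list) that share no base with the HepG2 list of high confidence peaks, which asks for 6 of 9 replicates (the 6of9 list), and no base with the K562 list that asks for 2 of 8 replicates (the 2of8 list). They made up 54.1% (95% Wilson interval 53.5-54.7) of the 28367 HepG2 2of9 intervals outside the mitochondrial chromosome. They were thus selected on whether peaks overlapped between the lists, and their absence from K562 and from the 6of9 list is a description of the rule. The mirror class, low-confidence intervals only in K562, held 6973 of 19231 intervals and is called K562-only low below. HepG2 is a hepatocellular carcinoma line and K562 is a chronic myelogenous leukemia line. Both were untreated, and chromatin cross-linked with formaldehyde and sheared by sonication was treated with RNase A before G4 structures were immunoprecipitated with the antibody BG4. The samples are 3 G4 libraries and 1 input library for each line, and the replicates of each line came from 3 independent experiments with technical replicates, so 2 replicates may belong to a single experiment.

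A G-quadruplex (G4) is a 4-stranded DNA structure that stacks planes of guanines from a G-rich strand. Endogenous G4s are known to gather in open chromatin, above all in promoters rich in G and C just upstream of transcription start sites (TSS), where many transcription factors are also found. Hepatocytes and lines derived from them are known for the factors HNF4A, HNF1 and FOXA, which act at enhancers and promoters of liver genes, and red cell precursors for GATA factors.

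The deposited lists hold positions only, with no peak height, depth or replicate number for any interval, so no spread between replicates could be computed. The tests below compare lists of intervals, and intervals are not replicates of a cell line. Because the lists asked for 2 of 9 and 2 of 8 replicates, the cell line and the way each list was made cannot be told apart. The odds ratios have 95% confidence intervals for counting error only, and their p-values are from 2-sided Fisher exact tests adjusted by Benjamini and Hochberg over 66 comparisons of shares.

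The sequences of several members are given first because they show how unlike one another these intervals are. All are from the plus strand of hg19 (GRCh37), and G4 motif here means 4 stretches of 3 or more G with loops of 1 to 7 bases between them, on either strand (it is read as runs of C when it lies on the minus strand). In the first set, capitals mark the G4 motif. Promoter members of APOE, CEBPB and AXIN2 are shown, as cases in which an interval held its own motif.

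upstream of APOE, chr19:45408771-45409038: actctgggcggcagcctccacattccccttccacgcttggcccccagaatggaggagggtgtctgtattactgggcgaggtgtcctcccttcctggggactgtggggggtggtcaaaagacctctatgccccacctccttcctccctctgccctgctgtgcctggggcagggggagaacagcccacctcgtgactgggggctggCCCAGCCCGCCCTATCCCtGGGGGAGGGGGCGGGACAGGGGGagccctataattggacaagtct
upstream of CEBPB, chr20:48806426-48806675: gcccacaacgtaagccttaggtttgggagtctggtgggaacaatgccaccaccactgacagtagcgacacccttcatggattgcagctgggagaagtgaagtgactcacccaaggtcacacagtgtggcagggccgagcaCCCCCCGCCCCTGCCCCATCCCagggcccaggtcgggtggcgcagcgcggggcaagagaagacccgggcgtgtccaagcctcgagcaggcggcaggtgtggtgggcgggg
motif of the AXIN2 member, within the member, chr17:63556541-63556567: GGGGGGCGGGGGAGGGCAAGCGGGGGG

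The second set shows the liver factor letters that the motif comparison below turns on, and capitals mark the 9 letters CAAAGTCCA of the HNF4A motif on either strand, the FOXA letters TGTTTAC or the HNF1 letters GTTAATNAT, and, in the GPC1 and chromosome 2 intergenic intervals, the G4 motif too. These members were chosen after their values were seen, from the 3 widest, of at most 300 bp and outside UTRs, whose own interval held HNF4A letters together with a G4 motif and the 3 widest with FOXA or HNF1 letters.

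in an intron of GPC1, HNF4A letters that run into a G4 motif, chr2:241382588-241382859: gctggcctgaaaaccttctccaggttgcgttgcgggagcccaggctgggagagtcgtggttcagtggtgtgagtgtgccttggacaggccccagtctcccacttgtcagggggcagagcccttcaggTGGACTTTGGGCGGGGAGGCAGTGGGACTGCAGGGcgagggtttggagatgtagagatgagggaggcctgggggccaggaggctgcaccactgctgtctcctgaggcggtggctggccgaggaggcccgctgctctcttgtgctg
between genes on chromosome 2, HNF4A letters and a G4 motif, chr2:8739917-8740149: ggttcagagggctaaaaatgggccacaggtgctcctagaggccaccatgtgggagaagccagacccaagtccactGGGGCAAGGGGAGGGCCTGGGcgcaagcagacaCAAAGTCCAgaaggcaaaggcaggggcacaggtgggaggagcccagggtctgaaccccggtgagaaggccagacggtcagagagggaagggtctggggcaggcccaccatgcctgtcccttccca
between genes near USP18, HNF4A and FOXA letters, chr22:18631270-18631481: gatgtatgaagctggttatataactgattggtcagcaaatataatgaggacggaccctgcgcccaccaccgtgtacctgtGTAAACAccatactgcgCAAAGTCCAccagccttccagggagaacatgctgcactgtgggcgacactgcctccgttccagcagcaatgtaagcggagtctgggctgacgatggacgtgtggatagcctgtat
in an intron of ENSG00000258763 on chromosome 12, HNF4A and HNF1 letters, chr12:55893719-55893912: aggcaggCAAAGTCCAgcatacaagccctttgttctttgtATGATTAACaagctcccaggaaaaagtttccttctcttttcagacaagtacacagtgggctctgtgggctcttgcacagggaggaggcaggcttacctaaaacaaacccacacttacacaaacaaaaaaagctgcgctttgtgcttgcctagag

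HNF4A letters lay inside 179 member intervals, of which 12 also held a G4 motif and 10 also held FOXA or HNF1 letters. Over all members a G4 motif lay within 7.83% of intervals, so the 12 are near that level. In the 200 bp around the centre, FOXA letters were in 3.71% of all members and HNF1 letters in 0.756%.

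Counted within the interval itself, G4 motifs were less frequent in the members than in the other 4 classes. A motif lay within the interval in 7.83% of members (1201 of 15348; 7.41-8.26), in 15.3% of K562-only low intervals, in 22.8% of the HepG2 low-confidence intervals that recurred in K562 (4739 intervals, called recurring low), in 19.9% of the HepG2-only high confidence intervals (2643) and in 42.3% of the high confidence intervals shared with K562 (5637). The odds ratio of members to K562-only low intervals was 0.471 (0.432-0.515; Fisher exact adjusted p = 1.03e-60), and the share was lower in members on 23 of the 23 chromosomes compared. With shorter runs of at least 2 G, a motif lay in 63.6% of members and 75.8% of K562-only low intervals. Of the 1201 members with a motif, the plus strand alone carried it in 604, the minus strand alone in 557, and 40 had it on each strand. Inside genes the G runs lay on the coding strand in 267 intervals and on the template strand in 208 (56.2%; 51.7-60.6), against 166 and 128 in K562-only low intervals.

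Interval width and GC content both differed between the classes, and the motif comparison was therefore repeated at equal width and at equal GC. Members had a median width of 121 bp (120-122; quartiles 85 and 174 bp), HepG2-only high confidence intervals of 306 bp and K562-only low intervals of 130 bp. In a fixed window of 200 bp around each centre, 12.9% of members and 12.6% of HepG2-only high confidence intervals held a motif (odds ratio 1.03, 0.907-1.2; Fisher exact adjusted p = 0.728), against 0.342 (0.305-0.382) for the intervals themselves. Within classes of 50 bp in width the ratio was 1.31 (1.13-1.53), that is, higher in members, but in windows within GC classes of 5 percentage points it was 0.820 (0.718-0.936), lower in members. The direction against HepG2-only high confidence intervals thus depended on what was held equal. For this comparison the width classes left out the narrowest members, because no HepG2-only high confidence interval was under 125 bp. Against K562-only low intervals the ratio within width classes was 0.472 (0.430-0.516). In the window, 22.8% of K562-only low intervals held a motif, and 2.20% of windows on a grid of 1 per 50 kb over the genome. The median window GC was 60% in members, 65% in K562-only low intervals, 57.5% in HepG2-only high confidence intervals, 68% in recurring low intervals and 40% on the grid. Compared within the same GC classes, an alternative chosen after the data were seen, the odds ratio of members to K562-only low intervals was 0.973 (0.894-1.06), so a difference in motif share at equal GC was not detected, whereas without the classes it was 0.503 (0.468-0.542).

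**Figure D1:**
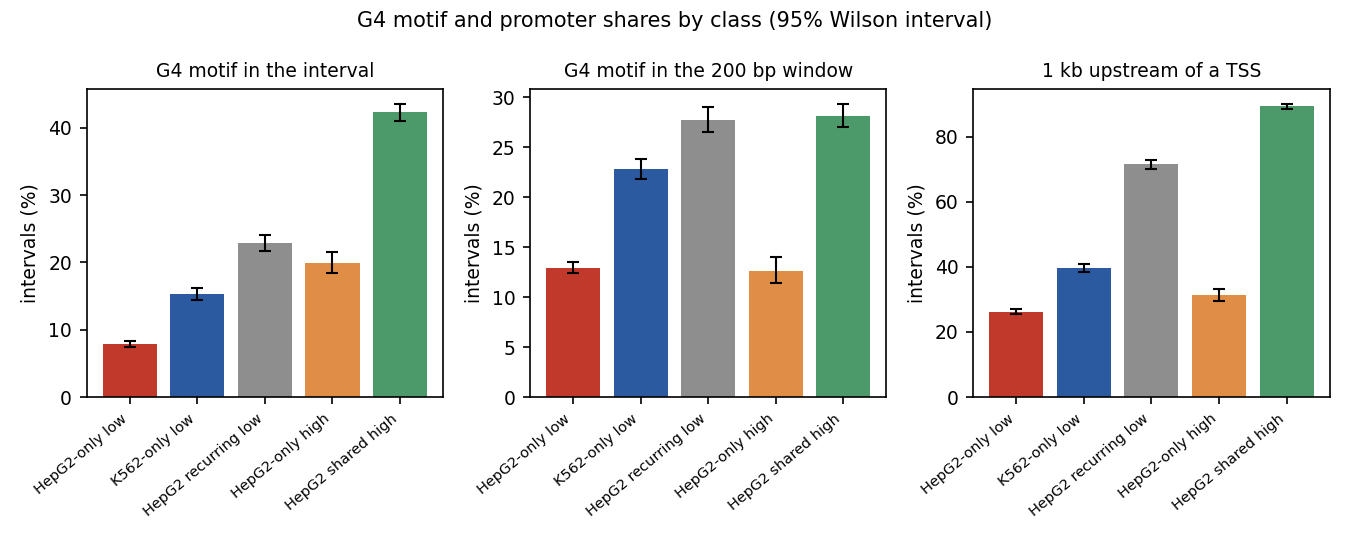
Share of intervals (%) in 5 classes that held a G4 motif in the interval, held one in the 200 bp window, or reached the 1 kb upstream of a TSS, with 95% Wilson intervals as error bars. HepG2-only low intervals are lowest for the interval motif and the promoter, and level with HepG2-only high intervals for the window motif.

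**Figure D2:**
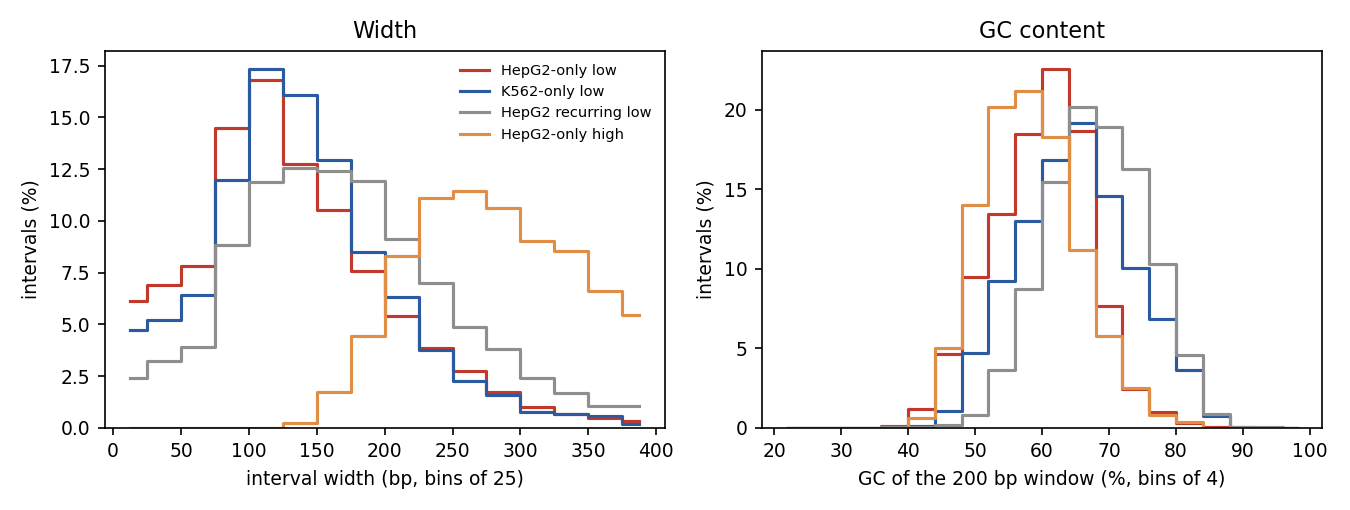
Distribution of interval width (bp) and of window GC (%) in 4 classes, as a percentage of the intervals of each class in bins. HepG2-only high intervals are wider than all 3 low classes, and HepG2-only low intervals lie to the left of K562-only low intervals in GC.

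A smaller share of the members than of the other 4 classes lay in promoters. At least 1 bp of the 1 kb upstream of an annotated TSS was covered by 26.3% of members (4031; 25.6-27.0), against 39.6% of K562-only low, 31.3% of HepG2-only high confidence, 71.4% of recurring low and 89.4% of shared high confidence intervals, and 4.81% of the grid windows. The odds ratio of members to K562-only low intervals was 0.544 (0.512-0.577; Fisher exact adjusted p = 2.47e-86) and was lower on 23 of 23 chromosomes. Against HepG2-only high confidence intervals it was 0.784 (0.716-0.857; Fisher exact adjusted p = 2.15e-07). Within width classes, which left out the narrowest members, it was 1.03 (0.908-1.2), so that this difference was not detected at equal width. Against recurring low intervals it was 0.142 (0.132-0.153). The centre of a member lay in an intron in 43.3% of cases, upstream of a TSS in 24.5%, between genes in 18.8%, in a noncoding exon in 4.65%, in a 3' UTR in 3.92%, in a coding exon in 3.49% and in a 5' UTR in 1.36%. In K562-only low intervals the intron share was 33.3%, below that of members (odds ratio 1.53, 1.44-1.62; Fisher exact adjusted p = 1.26e-44; members higher on 23 of 23 chromosomes), while it was 44.5% in HepG2-only high confidence intervals (odds ratio 0.95, 0.874-1.03) and 54.0% on the grid. The median distance from the centre to the nearest TSS was 2096 bp in members, 926 bp in K562-only low, 100 bp in recurring low and 2476 bp in HepG2-only high confidence intervals. Of the members within 1 kb of a TSS, 49.8% lay upstream of it (48.5-51.1), against 52.7% (51.0-54.3) in K562-only low, 63.6% in HepG2-only high confidence, 66.7% in recurring low and 76.1% in shared high confidence intervals.

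The letters of liver factor motifs were more frequent in members than in K562-only low intervals, and those of GATA, SP1 and ETS motifs less frequent. In 200 bp windows, HNF4A letters were found in 1.49% of members (229) and 0.0860% of K562-only low intervals (6), an odds ratio of 17.6 (7.82-39.6; Fisher exact adjusted p = 4.21e-29). The grid held them in 0.240% of windows, and HepG2-only high confidence intervals in 3.22%. HNF4A is a nuclear receptor that controls much of the liver gene program. HNF1 letters were in 0.756% of members (116) and 0.0574% of K562-only low intervals (4; odds ratio 13.3, 4.90-36.0; Fisher exact adjusted p = 3.74e-14), but in 0.913% of grid windows, above the members. FOXA letters, the site of the forkhead pioneer factors, were in 3.71% and 1.19% (odds ratio 3.20, 2.53-4.03; Fisher exact adjusted p = 1.94e-28), with 3.27% on the grid and 6.89% in HepG2-only high confidence intervals. The members are thus above the grid for HNF4A, near it for FOXA and below it for HNF1. The grid was not matched for GC, with a median window GC of 40% against 60% in members. GATA letters AGATAA were in 4.63% of members and 9.52% of K562-only low intervals (odds ratio 0.461, 0.413-0.514; Fisher exact adjusted p = 8.16e-42), both below the 14.5% of the grid. In recurring low intervals the GATA share was 2.13%, below that of members (odds ratio 2.23, 1.80-2.75). It was 7.30% in HepG2-only high confidence intervals, above that of members (odds ratio 0.616, 0.522-0.726). SP1 letters GGGCGG, typical of CpG-rich promoters, were in 19.4% and 38.9% (odds ratio 0.378, 0.355-0.403), and in 2.86% of the grid. The SP1 ratio rose to as much as 0.740 under the alternatives given at the end.

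Of the 16 factor motifs compared, 11 differed between members and K562-only low intervals, 5 of them higher in members (HNF4A, HNF1, FOXA, TEAD and NFY) and 6 lower (GATA, SP1, KLF, ETS, AP-1 and CRE). Within GC classes the HNF4A ratio was 11.5 (5.09-26.1), the HNF1 ratio 7.96 (2.90-21.9), the FOXA ratio 2.1 (1.65-2.68) and the GATA ratio 0.238 (0.211-0.269), whereas the NFY ratio was 1.01 (0.926-1.10). With intervals upstream of a TSS left out, HNF4A letters were in 1.68% of members (195 of 11581) and 0.114% of K562-only low intervals (5 of 4392). HNF4A, HNF1 and FOXA letters were less frequent in members than in HepG2-only high confidence intervals, with odds ratios of 0.456 (0.354-0.587) for HNF4A, 0.322 (0.236-0.441) for HNF1 and 0.521 (0.438-0.618) for FOXA. The largest Fisher exact adjusted p of these 3 comparisons was 1.90e-08. Against recurring low intervals the odds ratios were 6.51 (3.55-11.9) for HNF4A, 9.01 (3.33-24.4) for HNF1 and 2.57 (2.00-3.30) for FOXA. At least 1 of the HNF4A, HNF1, FOXA and CEBP letters was in the window of 1036 members (6.75%), and a G4 motif was in 7.34% of those 1036 windows, against 12.9% of all members. The same 2 shares were 7.54% and 12.6% in HepG2-only high confidence intervals and 17.7% and 22.8% in K562-only low intervals. CEBP letters alone were in 0.945% of members and 0.688% of K562-only low intervals (odds ratio 1.38, 0.992-1.91; Fisher exact adjusted p = 0.0745) and in 2.17% of the grid. A match of letters is a description of the sequence and was not set beside any binding data.

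**Figure D3:**
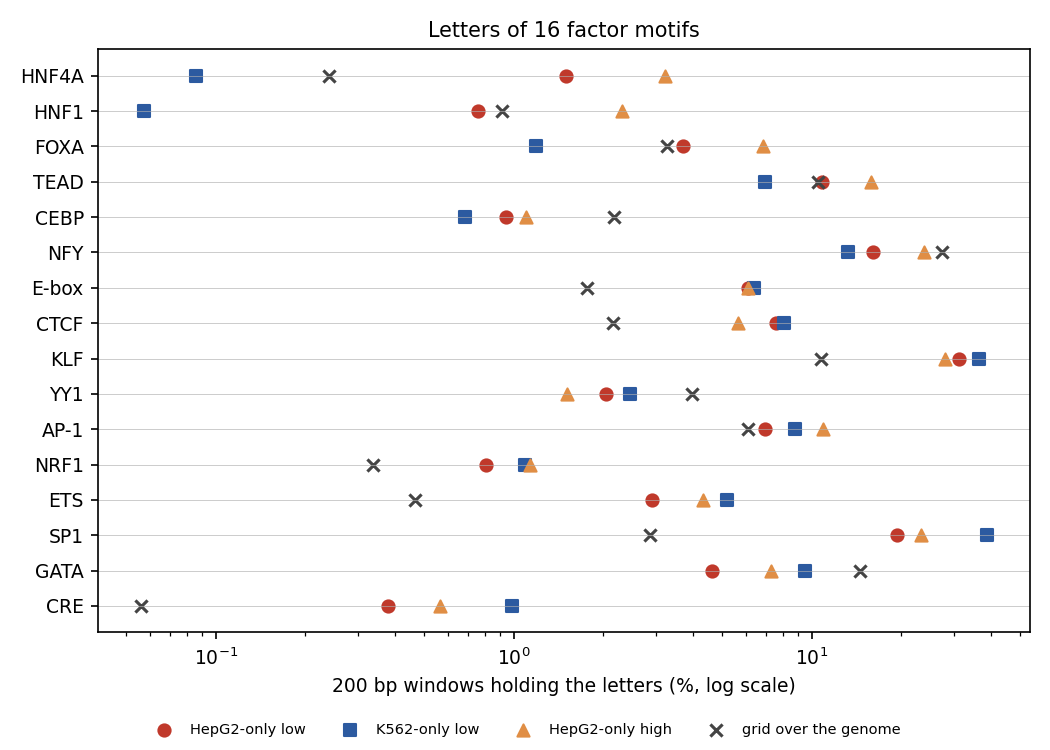
Share of 200 bp windows (%, log axis) that held the letters of each of 16 factor motifs in HepG2-only low, K562-only low and HepG2-only high intervals and on the grid over the genome. HNF4A, HNF1 and FOXA letters are further to the right in HepG2-only low than in K562-only low intervals, and GATA and SP1 letters further to the left.

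Liver motif letters were denser at the centres of the members than in their flanks. Within 100 bp of the centre there were 15.2 HNF4A matches per 1000 members, against 2.93 per 1000 for the same length of sequence 300 to 500 bp away, a ratio of 5.18 (233 and 90 matches, the latter over 2 flanks). The ratio was 2.24 for FOXA and 2.00 for HNF1. In K562-only low intervals the same ratios were 0.308, 0.868 and 0.242, from 6, 89 and 4 central matches. GATA letters showed the opposite arrangement, with a ratio of 0.780 in members and 1.70 in K562-only low intervals. SP1 letters were denser at the centre in both, with a ratio of 1.20 in members and 1.91 in K562-only low intervals. G4 motifs did not gather at the centres of members, with 162 per 1000 centrally and 169 per 1000 in the flanks (ratio 0.958), whereas in K562-only low intervals the ratio was 1.42. G4 motifs that ran beyond 500 bp from the centre were missed, which lowers the flank counts and makes both G4 ratios somewhat too high. In members the outermost bins held 36.7 and 34.5 per 1000, against 45.9 and 45.3 in the bins next to them. These profiles were computed after the window comparison was known and were not tested.

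**Figure D4:**
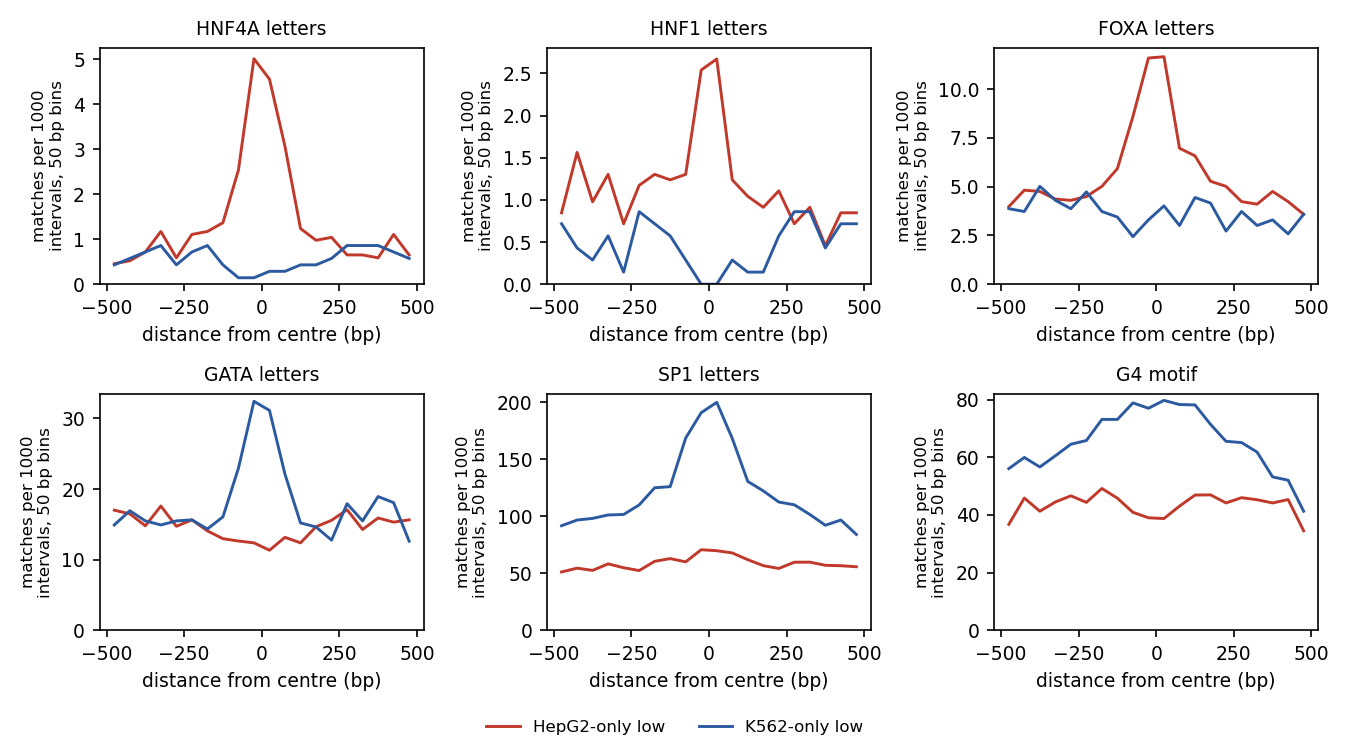
Matches per 1000 intervals in bins of 50 bp, by distance from the interval centre (bp), for HNF4A, HNF1, FOXA, GATA and SP1 letters and the G4 motif in HepG2-only low and K562-only low intervals. HNF4A, HNF1 and FOXA letters peak at the centre of HepG2-only low intervals, and GATA and SP1 letters and the G4 motif at the centre of K562-only low intervals. SP1 letters also rise, by less, at the centre of HepG2-only low intervals.

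Members lay unevenly over the genome. There were 4.96 per Mb, against 2.25 per Mb of K562-only low intervals. The densest chromosomes were chromosome 20 with 21.6 members per Mb, chromosome 17 with 19.0 and chromosome 19 with 14.8, which held 24.6% of members, and the fewest lay on chromosomes Y (0.135), X (0.348) and 13 (1.6). HepG2-only high confidence intervals were densest on the same chromosomes 20, 17 and 19, with 3.00, 3.25 and 2.67 per Mb, against 0.854 per Mb in all. Chromosome 19 was also the densest for K562-only low (11.6 per Mb), recurring low (7.51) and shared high confidence intervals (9.49). On chromosome 20 the members were 11.5-fold as many as K562-only low intervals (118), on chromosome 14 they were 7.90-fold and on chromosome 2 they were 6.53-fold as many. On chromosomes 22 (533 and 593) and X (54 and 129) there were fewer members than K562-only low intervals. HepG2-only high confidence intervals too outnumbered K562-only low intervals on chromosomes 20 (189 and 118), 14 (134 and 87) and 2 (265 and 224). Within 5 Mb of a chromosome end lay 31.9% of members and 22.2% of K562-only low intervals (odds ratio 1.64, 1.54-1.76; Fisher exact adjusted p = 8.39e-51), and 7.11% of the grid. The share was higher in members on 17 and lower on 6 of 23 chromosomes.

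**Figure D5:**
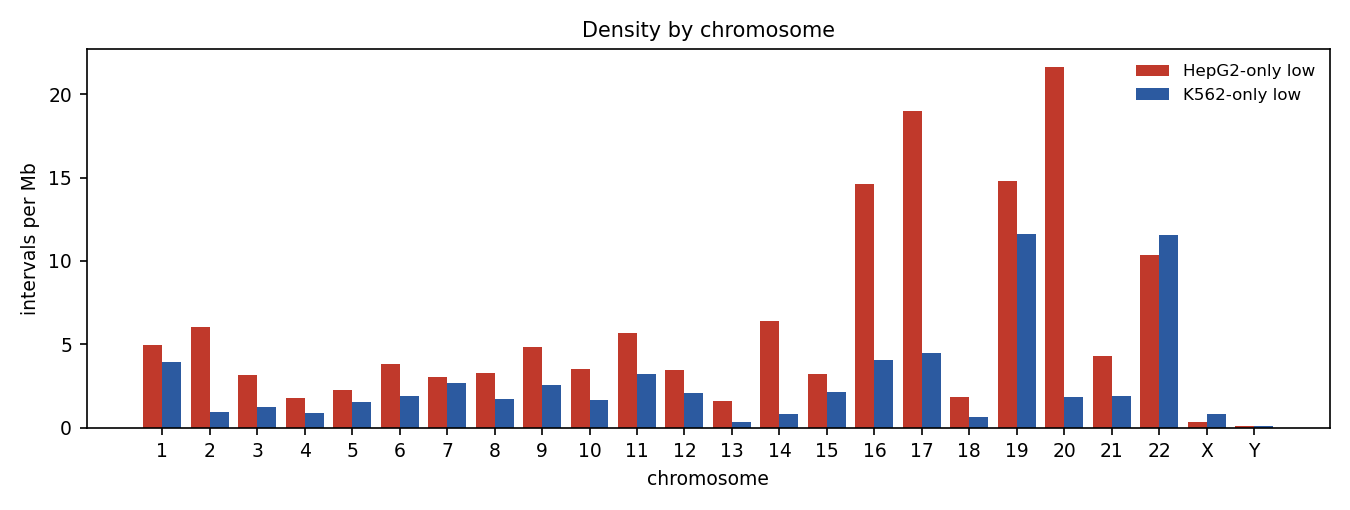
Intervals per Mb on each chromosome for HepG2-only low and K562-only low intervals. HepG2-only low intervals are densest on chromosomes 20, 17 and 19, and outnumber K562-only low intervals most on chromosome 20.

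In blocks of 1 Mb, 1750 of 3113 blocks held a member and 37 held at least 50. The fullest were chr20:62000001-63000000 with 258 members and 20 K562-only low intervals, chr20:61000001-62000000 with 242 and 11, chr17:79000001-80000000 with 221 and 32, chr2:241000001-242000000 with 151 and 5, and chr20:60000001-61000000 with 150 and 7. The 50 fullest blocks held 25.7% of members, and K562-only low intervals had 27.7% in their own 50 fullest. The sequence values of members in these blocks are set beside those of the other members with no test. Their median window GC was 63.5% against 58.5%, G4 motifs were in 16.3% (15.2-17.5) of windows against 11.8% (11.2-12.4), HNF4A letters in 0.962% against 1.68%, HNF1 letters in 0.202% against 0.948% and FOXA letters in 1.44% against 4.49%, so the G4 and liver letters moved in opposite directions between these blocks and the rest. The median gap between a member and the next member was 4493 bp, and 31.2% of members lay within 1 kb of another one. The median gap to a HepG2 6of9 interval was 23523.5 bp, and to a K562 2of8 interval it was 12569 bp.

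Among the genes with the most members were LAMA5, a laminin subunit, with 54 members in its gene or promoter, GSE1 with 38, BAHCC1 with 32 and KIF1A, an axonal kinesin, with 31. K562-only low intervals numbered 5, 34, 4 and 0 in these genes. ZFPM1, a GATA cofactor, followed with 30 members and 11 K562-only low intervals, then AATK with 29 and 1, MEGF6 with 28 and 11, CROCC2 with 27 and 0, and COL20A1 with 26 and 0. Per 10 kb of gene, LAMA5 held 9.10 members, COL20A1 6.24 and GSE1 0.750.

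Of 20163 coding genes, 2700 (13.4%) had a member in the 1 kb upstream of a TSS and 5716 (28.3%) had one in the gene or that promoter. For K562-only low intervals the counts were 2055 (10.2%) and 3726 (18.5%). Of the 2700, 907 also had a HepG2 6of9 interval upstream, and 1443 had a K562 2of8 interval elsewhere in the same promoter, while in 1140 the members were the only interval of any of the 4 lists. Gene lists were set beside these backgrounds with no test.

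Genes secreted by or active in liver had members upstream in 9 of 32 cases (28.1% against 13.4%) and K562-only low intervals in 1 (3.13% against 10.2%). They included APOE, FGA, FGG, AHSG, HPX, VTN, SERPINC1 and ASGR1. The AHSG member, the widest of them, ran over 341 bp at chr3:186330573-186330913 with GC of 51.0%. Its 200 bp window held HNF4A letters, and also GATA, KLF and ETS letters. AHSG encodes fetuin-A, a plasma protein made in liver. The VTN member was 308 bp wide, and the SERPINC1 member 262 bp. VTN (vitronectin) and SERPINC1 (antithrombin) are plasma proteins too. The AHSG, VTN and SERPINC1 members held no G4 motif. No HNF4A, HNF1, FOXA or CEBP letters were in the windows of the VTN, SERPINC1 and APOE members. The APOE member printed above, 268 bp wide, held 2 motifs, 1 on each strand, and lay 746 bp from the nearest K562 2of8 interval.

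Hepatocyte transcription factors had members upstream in 5 of 22 cases (22.7% against 13.4%) and in the gene or promoter in 14 (63.6% against 28.3%). K562-only low intervals lay upstream in 1 of the 22 (4.55% against 10.2%). The 5 were CEBPB, FOXA1, GATA4, PROX1 and RXRA, and of their 7 members the CEBPB one, 250 bp wide with a minus-strand motif, was the 1 that held a G4 motif. The FOXA1 member, at chr14:38064088-38064287, lay 162 bp from a HepG2 6of9 interval and 396804 bp from the nearest K562 2of8 interval, the largest such gap of the 7. The CEBPB member lay 274 bp from a K562 2of8 interval, and the CEBPB promoter also held a K562-only low interval. Erythroid genes had no member upstream in 26 cases (against 13.4%) and 2 in the gene or promoter (7.69% against 28.3%), while 5 had a K562-only low interval upstream (19.2% against 10.2%). Blood transcription factors had members in 3 of 20 promoters (GATA2, HHEX and MEIS1) and K562-only low intervals in 6. In the gene or promoter, 9 of these 20 had a member (45.0% against 28.3%) and 12 a K562-only low interval. The blood factors held 51 members in all, 30 of them in ZFPM1 and 11 in CBFA2T3. The hepatocyte factors held 47, of which 23 lay in RXRA, so both totals rest largely on single genes. K562-only low intervals numbered 27 in the blood factors (11 in ZFPM1) and 5 in the hepatocyte factors (4 in RXRA). Leukocyte genes had members in 2 of 20 promoters (LAT and CORO1A) and K562-only low intervals in 5.

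Epithelial genes had members in 5 of 22 promoters, namely ESRP2, PKP3, CLDN4, TJP3 and ELF3 (22.7% against 13.4%), and K562-only low intervals in 4 (18.2% against 10.2%). ESRP2, a splicing regulator of epithelial cells, had a member of 212 bp with a G4 motif on the minus strand. Sterol and fatty acid genes had them in 6 of 24 promoters and K562-only low intervals in 3 (12.5%), and 21 of these 24 promoters held a HepG2 6of9 interval. FASN, the fatty acid synthase, had 6 members upstream, a gene singled out after its values were seen, and SREBF1 had 3, and the HMGCS1 member lay 7 bp from a K562 2of8 interval. Wnt target genes had members in 7 of 18 promoters (38.9% against 13.4%), and the AXIN2 member of 277 bp held 3 motifs on the plus strand. K562-only low intervals lay in 5 of these 18 promoters (27.8% against 10.2%). Proteasome genes had members in 5 of 31 promoters (PSMB5, PSMB6, PSMB7, PSMD1 and PSMD4; 16.1% against 13.4%), near the background share, and none of these members held a G4 motif.

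The rule has a sharp edge, and 61 members lay 0 to 10 bp from a K562 2of8 interval, of which 10 touched it end to end. A further 110 HepG2 low-confidence intervals were left out for an overlap of 1 to 10 bp. In all, 1558 members (10.2%) lay within 500 bp of a K562 2of8 interval.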

How the data were processed

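G4 ChIP-seq with the antibody BG4 was carried out in K562 and HepG2, and 4 lists of intervals were used. The authors mapped trimmed reads with BWA (build hg19), dropped duplicates, called peaks in each replicate against input with MACS2 (q threshold 0.05) and kept regions found in 2 of 9 or 6 of 9 (HepG2) and 2 of 8 or 5 of 8 (K562) replicates. The deposited values are positions only, so the depth behind an interval is unknown and intervals carry no replicate number; the samples list holds 8 libraries, of which 2 are inputs. All intervals ended within the chromosomes of GRCh37.

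Members were found by overlap of at least 1 bp, without the mitochondrial chromosome. Sequences were read with pysam 0.24.0, positions from GENCODE transcripts lifted to GRCh37, and shares were compared with Fisher's exact test in scipy 1.17.1 and Mantel-Haenszel odds ratios in statsmodels 0.14.6. Promoters were the 1 kb upstream of a TSS. Windows were 200 bp, and grid windows lay every 50 kb. The 5 fullest blocks, the 10 genes with the most members, the 3 widest members, the 3 with the most motifs and the members upstream of genes of 9 gene lists (the 4 widest where a list had over 8) were named by rule, and the remaining genes of a list were named to account for its count. Functions were tested on simulated data. Members, motifs and gene lists were chosen with earlier results of these data known, and comparisons with recurring low intervals, intron, intergenic and chromosome end shares, factor letters against HepG2-only high intervals, GC classes and centre profiles were added after the data were seen. Some items that the rule names, among them single genes and members, are not reported here.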

Additional observations from a re-analysis of the deposited data

How the results depend on the processing

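No paired analysis was possible because the deposited lists pool the replicates. Of 173 odds ratios recomputed under the alternatives, 166 kept their direction and their side of the adjusted threshold of 0.05, including 120 of 121 for factor letters (HNF4A from 11.5 to 26.8, FOXA from 2.1 to 3.56, GATA from 0.238 to 0.530). The SP1 ratio ran from 0.364 to 0.740 and the ETS ratio from 0.503 to 0.722, so their size varied though their direction did not. The exceptions follow.

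The G4 motif share of members, 7.83% as reported, was 7.41% when K562 intervals within 500 bp counted as overlap, 8.78% when only the K562 5of8 list was asked, 8.31% when overlap had to cover 50% of the interval, 9.0% and 10.9% for intervals of at least 50 and 100 bp, 8.58% when intervals within 100 bp were merged, 7.25% without chromosomes 20, 17 and 19, 15.4% with loops of up to 12 bases, 63.6% with runs of 2 G and 12.9% in the 200 bp window. The promoter share, 26.3%, was 22.8%, 31.2% and 27.5% under the first 3 of these alternatives, 27.6% for intervals of at least 100 bp, 16.1% for coding transcripts only, 37.6% with 1 kb on either side of the TSS and 24.5% by the centre. The median width, 121 bp, was 125 bp with the 5of8 list, 123 bp with the 50% overlap, 134 and 162 bp for the intervals of at least 50 and 100 bp, and 129 bp after merging. The median GC, 60.2%, was 59.8% with the 500 bp margin, 60.9% with the 5of8 list, 60.4% with the 50% overlap, 59.6% for intervals of at least 100 bp and 59.7% without the 3 chromosomes.

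Against HepG2-only high confidence intervals, the G4 motif odds ratio of 0.342 turned to 1.03 in the window, to 1.31 within width classes and to 1.14 in windows outside promoters, and was 0.820 in windows within GC classes. The promoter odds ratio of 0.784 turned to 1.03 within width classes and was 0.975 (Fisher exact adjusted p = 0.593) with 1 kb on either side. Both width-class ratios left out the narrowest members, because no HepG2-only high confidence interval was under 125 bp. Against K562-only low intervals, the G4 motif odds ratio was 0.973 within GC classes, and the NFY ratio was 1.01. GC classes and windows outside promoters were chosen after the data were seen. The cause of these changes was not tested beyond the width and GC classes themselves. The number of factor motifs called was 11 to 14 under every alternative run. No depth or replicate support can be given for any interval, and the lists differ in the replicates they asked for.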
